A study of Homo sapiens with 6 samples.

Results

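Leukotriene D4 (LTD4) was compared with its methanol vehicle after 8 h in L1236, an established Hodgkin lymphoma cell line of B-cell origin. The comparison rests on 3 of the 6 arrays of the series, 1 for LTD4, 1 for methanol and 1 for untreated cells, which served as a second reference. For LTD4, cells were spun down and taken up in medium free of serum that held 100 nM of the agent, diluted in methanol, and for the vehicle in the same medium with 0.1% methanol. The labels do not describe the handling of untreated cells, so a difference in serum between them and the other arrays cannot be told apart from the agents. The other 3 arrays were the same 3 agents at 1 h. All 6 arrays measured total RNA of the same line, cultured before treatment in medium with fetal calf serum. Each group was 1 array, so no difference had a replicate check or a test, and how many cultures lay behind an array is not stated.

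LTD4 belongs to the cysteinyl leukotrienes, lipid mediators that cells make from arachidonic acid through 5-lipoxygenase and leukotriene C4 synthase. It binds the G protein-coupled receptors CYSLTR1 and CYSLTR2, which signal mainly through Gq, phospholipase C beta and release of calcium from stores. Such receptors switch on immediate early genes soon after the ligand arrives, and a sample taken hours later shows what remains and what followed.

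Values were taken as log2(intensity + 16) and each array was centred on its median, so a difference is a distance from the typical row of that array. All 19479 rows of the table that named exactly 1 gene symbol were used, of 33297 in all, with dim rows included. These rows hold 18604 symbols, since 633 symbols sit on more than 1 row. A row is called bright here when its mean over the 6 arrays reached an intensity of 1263, the 95th percentile of the 45 antigenomic control rows, whose probes match no human sequence. That held for 3016 rows. Before centring, the median intensity of rows with 1 symbol was 251 for untreated cells, 352 for methanol and 321 for LTD4, and the log2 medians removed from the last pair were 8.52 and 8.39. In bulk RNA of this kind, fewer cells of a type and less RNA per cell cannot be told apart.

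The arrays carried the Hodgkin cell label. The 19 rows of Hodgkin cell markers, such as the CD30 gene TNFRSF8, summed to an intensity of 30157 for untreated cells, 35502 for methanol and 32887 for LTD4, and 12 of them were bright. The 17 rows of T and NK cell markers summed to between 1861 and 2786 and the 12 rows of myeloid markers to between 968 and 1426, with 0 bright rows in either list. The 15 rows of erythroid, endothelial and epithelial markers summed to between 6819 and 8780.0, with 1 bright row. On none of the 3 arrays was a marker row at 0, which on this scale does not show that the RNA was present. FCER2, the low-affinity IgE receptor CD23 of activated B cells, was bright at 4632, 5975 and 5398 in the order untreated, methanol and LTD4.

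At 8 h the LTD4 array lay close to the methanol array, and a short list of genes stood away from both references. Among bright genes, SRGN and ANXA1 were farthest above. SRGN is the core protein of a proteoglycan that packs secretory granules. ANXA1 is a calcium-dependent phospholipid-binding protein known for limiting inflammation. A number of dimmer rows lay farther above both references by the smaller difference. LTA4H, the enzyme that turns leukotriene A4 into leukotriene B4, was farthest below among bright genes when both references are counted. Small nucleolar RNAs made up much of what lay below methanol, while the immediate early genes that stood high at 1 h were near the methanol level.

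The regions just upstream of ANXA1, CXCL10 and LTA4H are shown as examples of an anti-inflammatory gene, a chemokine gene and a leukotriene enzyme gene named among the bright genes outside both references, each with an entry in RefSeq's promoter table. Each runs from 250 bases before to 50 after the annotated start in GRCh38.p14, 5′ to 3′ on the gene's strand. Capitals mark the motifs found on either strand among 7 that were searched.
ANXA1, chr9:73151615-73151914, plus strand: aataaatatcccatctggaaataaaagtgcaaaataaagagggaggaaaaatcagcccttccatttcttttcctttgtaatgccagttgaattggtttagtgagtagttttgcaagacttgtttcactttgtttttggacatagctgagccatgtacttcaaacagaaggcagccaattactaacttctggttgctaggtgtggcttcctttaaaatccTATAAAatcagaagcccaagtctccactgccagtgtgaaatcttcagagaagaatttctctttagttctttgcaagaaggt
CXCL10, chr4:76023448-76023747, minus strand: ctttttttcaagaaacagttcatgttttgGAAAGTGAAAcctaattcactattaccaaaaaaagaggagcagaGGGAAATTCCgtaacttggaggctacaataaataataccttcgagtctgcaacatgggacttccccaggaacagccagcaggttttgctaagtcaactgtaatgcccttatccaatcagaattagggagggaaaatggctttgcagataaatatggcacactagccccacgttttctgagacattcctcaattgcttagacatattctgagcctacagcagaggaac
LTA4H, chr12:96035538-96035837, minus strand: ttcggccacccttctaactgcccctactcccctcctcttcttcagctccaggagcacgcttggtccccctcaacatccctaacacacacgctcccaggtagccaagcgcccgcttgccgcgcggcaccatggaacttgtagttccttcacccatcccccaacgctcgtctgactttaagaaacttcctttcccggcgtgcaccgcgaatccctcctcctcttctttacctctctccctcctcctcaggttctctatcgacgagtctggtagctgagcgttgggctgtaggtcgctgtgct

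The motifs were TGACGTCA for CRE, GCGNGGGCG for EGR, CCGGAAG for ETS and TATAAA for the TATA box. The AP-1 motif was the letters TGA, then any base, then the letters TCA. The NF-kB motif began with GGGA and ended with TCC, with any 3 bases between. The interferon-stimulated response element (ISRE) was GAAA at either end of any 2 bases. The ANXA1 window held TATAAA at -31, counted from the gene's start. The CXCL10 window held GAAAGTGAAA at -221 and GGGAAATTCC at -177. None of the 7 motifs stood in the LTA4H window, which says only that these letters are not in these 300 bases. Among all 27305 promoters of the table, 3264 held TATAAA, 10.7% the ETS letters, 9.28% the EGR, 7.76% the AP-1, 5.07% the NF-kB, 3.65% the ISRE and 1.98% the CRE letters. Of the 28 rows above both references with a promoter entry, 6 held TATAAA, 6 the ETS, 4 the EGR, 3 the AP-1, 2 the NF-kB, 0 the ISRE and 0 the CRE letters. Among the 14044 rows with 1 symbol and a promoter entry, the shares were 9.11%, 14.6%, 13.3%, 5.51%, 5.40%, 3.09% and 2.69% in the same order. No letters of one motif overlapped those of another in the printed windows, and these matches describe letters and are not evidence of binding.

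The whole distribution was narrow. Over the 19479 rows the difference of LTD4 from methanol at 8 h had a median of 0.05 and an SD over rows of 0.21. The middle 50% of rows lay between -0.08 and 0.18, and the extremes were -1.25 and 1.65. Of all rows 59.0% lay above 0, and of bright rows 59.4%. The difference of LTD4 from untreated had an SD of 0.37 and that of methanol from untreated 0.34, so both arrays of serum-free cells stood farther from the untreated array than from each other. The antigenomic rows, which carry no gene, had an SD of 0.10 for LTD4 minus methanol and ran from -0.22 to 0.29. A second yardstick came from the 356 symbols with 2 rows of different values, both at or above the antigenomic median: the 2 rows differed by a median of 0.09 and by 0.44 at the 95th percentile. These yardsticks measure the spread within 2 arrays, not between cultures.

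**Figure D1:**
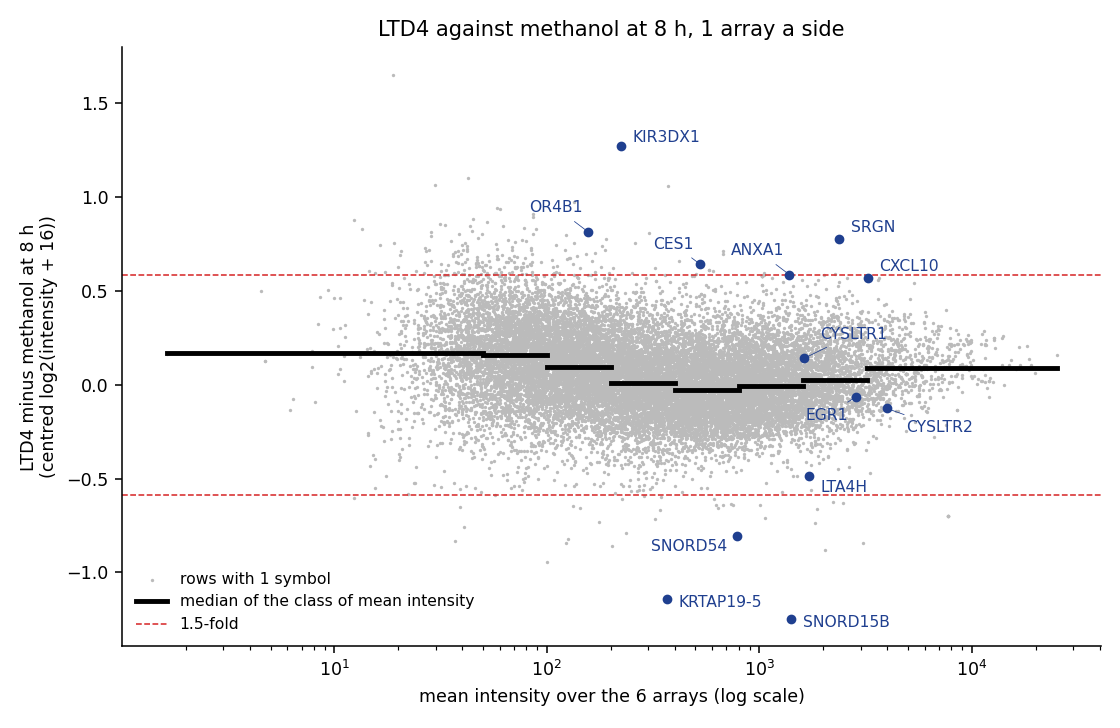
Difference of LTD4 from methanol at 8 h (y, centred log2 of intensity + 16) against the mean intensity over the 6 arrays (x, log scale) for 19479 rows with 1 symbol, 1 array a side. Black bars are class medians, which run from 0.17 under an intensity of 50 to -0.03 between 400 and 800 and 0.09 for the brightest class, dashed lines mark 1.5-fold, and blue points are named genes.

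At a limit of 1.5-fold, 189 rows lay above methanol, 0.97% of those compared, and 40 lay below, 0.205%. Against both references 36 rows were above (0.185%) and 7 below (0.0359%). Of the 189 rows above methanol 169 had a mean intensity under 200, 82 were under the antigenomic median of 54.0, and 3 were bright. Those 3 bright rows, seen as such after their values were known, were SRGN, ANXA1 and OSTC, a subunit of the complex that attaches sugars to proteins in the endoplasmic reticulum. Of the 40 rows below methanol 12 were bright, and 11 of them were rows of small nucleolar RNAs or their copies and the other was LOC727891, which the tables do not describe, and by symbol the 12 rows are 7. At 2-fold, 5 rows were above methanol and 2 below. The 5 were LOC401357, ORM2, LOC646289, KIR3DX1 and SNORD13P1, and the 2 were SNORD15B and KRTAP19-5. Of these, ORM2, LOC646289 and SNORD13P1 lay under the antigenomic median on every array of 8 h and give no usable fold.

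The brightness of a row moved with its difference. The median difference was 0.17 for the 1347 rows with a mean under 50 and 0.16 for the 2722 between 50 and 100. It was -0.03 for the 3466 rows between 400 and 800 and 0.09 for the 709 brightest. Dim families of receptors or structural genes therefore sit above 0 as a block, and each group below is set beside the median of all rows in the same 20 classes of mean intensity. The part of brightness in any single gene's difference was not tested.

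Among bright genes above both references, SRGN had the greatest distance from methanol. Its intensity was 1839 untreated, 2218 with methanol and 3481 with LTD4. The LTD4 value was the highest of the 3, with differences of 0.77 from methanol and 0.58 from untreated. SRGN lies on chromosome 10 at 70517834-70534573 in the deposited coordinates, for which the sources used here name no build. ANXA1 had intensities of 1028, 1581 and 2178 in the same order, and differences of 0.59 and 0.74. It was the 1 bright row past 1.5-fold against both references, and it sits just inside that limit, as SRGN sits just outside it against untreated.

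CXCL10, an interferon-inducible chemokine that draws T cells bearing CXCR3, had intensities of 3632 untreated, 4776 with methanol and 6478 with LTD4. The differences were 0.57 and 0.50, just short of 1.5-fold. At 1 h the LTD4 array had been lower than methanol for CXCL10, by -0.31. Its close relative CXCL11 was dim but ordered the same way, at 148, 253 and 310.

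MRPL32, a protein of the large mitochondrial ribosomal subunit, read 1258 untreated, 1897 with methanol and 2525 with LTD4, with differences of 0.54 and 0.66. MRPL39, of the same subunit, read 1500, 2076 and 2713 and had 0.51 against each reference. RSL24D1, which helps assemble the large cytoplasmic subunit, had 0.53 and 0.58, and RPF1, another assembly factor of that subunit, 0.47 and 0.55. The list of nucleolar ribosome biogenesis and nucleotide synthesis as a whole had a median of 0.09 over 51 rows, beside 0.00 for rows of like brightness, with 0 past 1.5-fold. In intensity, for MRPL32, MRPL39, RSL24D1 and RPF1, the untreated array was the lowest and the LTD4 array the highest.

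TRIAP1, a small mitochondrial protein induced by p53 that restrains apoptosis, read 872 untreated, 1510 with methanol and 1996 with LTD4, with differences of 0.53 and 0.84. FUNDC1, a receptor for mitophagy on the outer mitochondrial membrane, had 0.49 and 0.68. DPY30, a subunit shared by histone H3 lysine methyltransferase complexes, had 0.45 and 0.79, and PCLAF, which binds the replication clamp PCNA, 0.46 and 0.71. GGH, which trims glutamate from folates, had 0.45 and 0.49, and SS18L2 had 0.47 and 0.89. Methanol itself lay above untreated for SS18L2, DPY30 and TRIAP1, by 0.41, 0.33 and 0.32.

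C1D, a cofactor of the nuclear exosome, had 0.57 against methanol on both of its rows, on chromosomes 10 and 2. The brighter row, on chromosome 10, read 2189, 3508 and 4776, and the row on chromosome 2 read 1622, 2460 and 3351, so near-identical copies cannot be separated by these values. The last of the 15 bright genes above both, UNC93B3, is a pseudogene with 0.48 and 0.70.

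**Figure D2:**
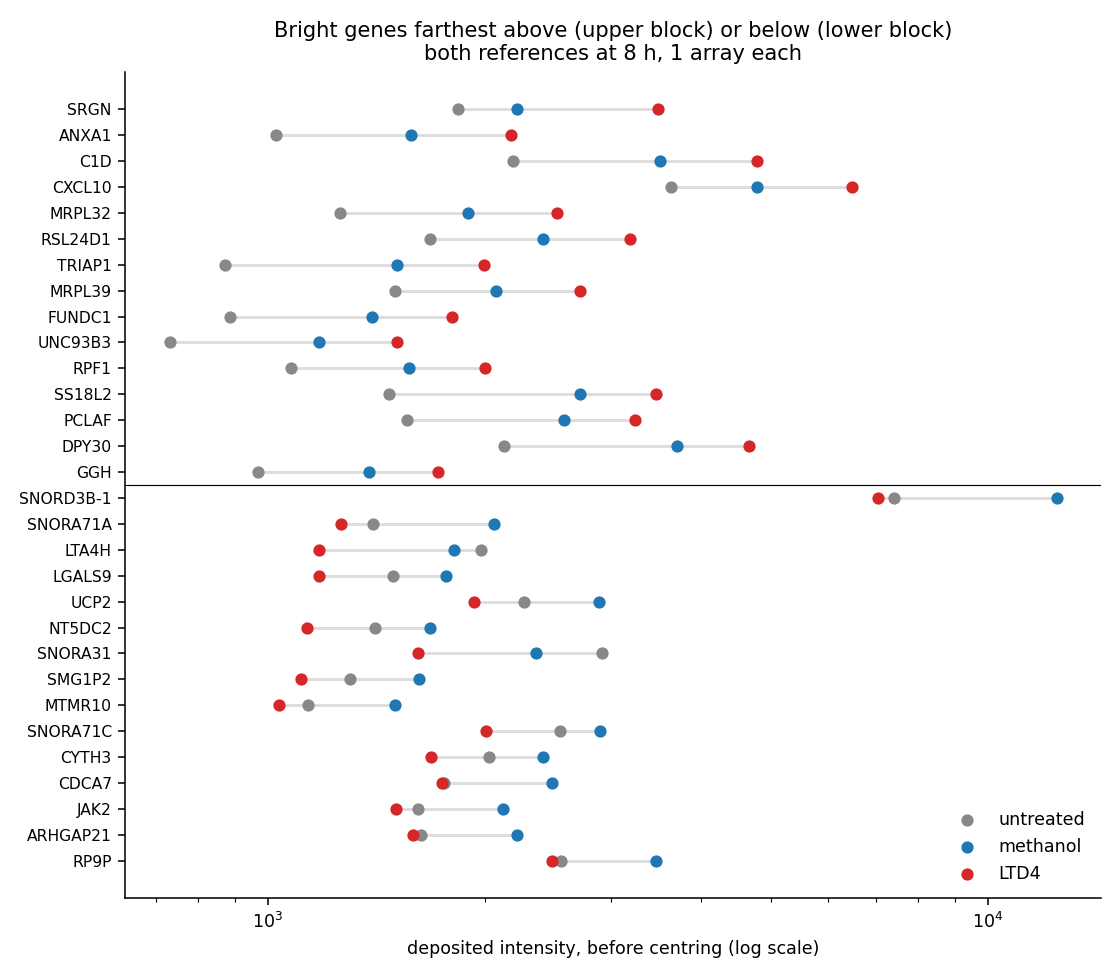
Deposited intensity before centring (x, log scale) of the 15 bright genes farthest above both references (upper block) and the 15 farthest below (lower block) on the untreated (grey), methanol (blue) and LTD4 (red) array at 8 h, 1 array each. In the upper block the order is untreated, methanol, LTD4 throughout, while in most of the lower block methanol is highest, with LTA4H and SNORA31 highest in untreated cells.

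Among bright genes below both references, LTA4H stood first. Its intensity was 1979 untreated, 1812 with methanol and 1177 with LTD4. The differences were -0.49 from methanol and -1.08 from untreated, so the methanol array had already lain below untreated by -0.59. LTA4H is on chromosome 12 at 94918739-94953496 in the deposited coordinates. At 1 h LTD4 had stood above methanol by 0.55 for this gene.

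LGALS9, the sugar-binding galectin-9, read 1495, 1767 and 1179 in the order untreated, methanol and LTD4, with differences of -0.45 and -0.67. UCP2, an uncoupling protein of the inner mitochondrial membrane, read 2268, 2887 and 1934 and had -0.45 and -0.56. JAK2, the tyrosine kinase that passes cytokine signals to STAT proteins, read 1616, 2119 and 1508 and had -0.36 and -0.43. In intensity before centring, methanol was highest and LTD4 lowest for these 3 genes. After centring, methanol lay below untreated for LGALS9, UCP2 and JAK2, by -0.22, -0.12 and -0.07, and LTD4 was still lowest.

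Regulators of small GTPases were among the rest. CYTH3, an exchange factor for ARF GTPases, had -0.39 and -0.60, and ARHGAP21, a GTPase-activating protein, -0.35 and -0.37. CDCA7, a zinc finger protein linked to DNA methylation, had -0.38 and -0.35. MTMR10, of the myotubularin family, had -0.40 and -0.46, and NT5DC2 had -0.44 and -0.65. SMG1P2 and RP9P, both pseudogenes, had -0.41 and -0.35 against methanol. The remaining bright rows were small nucleolar RNAs, described below.

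Of the dim rows past the limit against both references, KIR3DX1, a gene of the immunoglobulin-like receptor family, read 16.4 untreated, 98.4 with methanol and 237 with LTD4, and at 1 h LTD4 had been below methanol by -0.60. GSTM3, a glutathione transferase, read 4.17, 79.9 and 134. CES1, a carboxylesterase, read 103, 337 and 488, with differences of 0.64 and 1.74, and at 1 h had been lower by -1.49. For CES1 methanol itself lay 1.10 above untreated. The untreated values of KIR3DX1 and GSTM3 were under the antigenomic median of that array, 40.7, so their distances from untreated are not measured.

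MED31, a subunit of the Mediator complex, and PKIB, an inhibitor of protein kinase A, were brighter than most of the 36 and were picked out after their values were seen. MED31 read 412, 656 and 993, with differences of 0.71 and 0.90, and PKIB read 361, 625 and 933, with 0.69 and 1.00. At 1 h their differences from methanol had been 0.10 and -0.06. SNORD13P1 had the greatest difference of any row, 1.65, from intensities of 0.04, 2.24 and 36.5. All 3 of these lie under the antigenomic median and give no usable fold.

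Other dim rows that led the ranking above both were CRIPTO3, LCE2D, OR4B1, SEPTIN12 and SERPINB3. Their differences from methanol were 0.75 to 0.88 and their LTD4 intensities 33.9 to 152. Their untreated values, 4.51 to 34.3, were under the antigenomic median of that array, 40.7, so their distances from untreated are not measured. CRIPTO3 and SERPINB3 lay under the antigenomic median on every array of 8 h. Below both, KRTAP19-5 read 317, 514 and 204, with -1.14 and -0.93, and was lower by -0.92 at 1 h too. FOXRED2, a flavoprotein of the endoplasmic reticulum, read 251, 275 and 163, with -0.58 and -0.91. BMP15, an oocyte growth factor, and TCHHL1 and XRRA1 had differences of -0.65, -0.57 and -0.56 from methanol. FLJ31958, LOC284788 and FLJ30672 also led the dim rows below, at -0.94, -0.76 and -0.65. BMP15 and LOC284788 lay under the antigenomic median on every array of 8 h and give no usable fold.

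Of the receptors and enzymes of the leukotrienes, none was 1.5-fold from methanol, and LTA4H at -0.49 lay farthest below. CYSLTR1 read 1499 untreated, 1551 with methanol and 1567 with LTD4, a difference of 0.14 from methanol. CYSLTR2 read 3799, 4364 and 3657, a difference of -0.13. Neither left the range of the antigenomic rows. PTGER4, a prostaglandin E2 receptor, read 2760, 2379 and 1871, with -0.22 from methanol and -0.89 from untreated. Of the 15 rows of leukotriene and prostanoid receptors, 12 were above 0 and 0 past 1.5-fold, with a median of 0.14 beside 0.11 for rows of like brightness. The greatest difference was 0.57 for PTGER2, another prostaglandin E2 receptor, dim at 65.2, 44.3 and 65.9.

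Enzymes were split. Of 23 rows of leukotriene and lipoxygenase enzymes, 13 lay above 0 and 10 below, with a median of 0.06, and after LTA4H the lowest was PLA2G6, a calcium-independent phospholipase, at -0.41 from 127, 172 and 113. ALOX15, the 15-lipoxygenase, was very bright, at 9224 untreated, 7185 with methanol and 5664 with LTD4, with differences of -0.22 from methanol and -1.04 from untreated. PLA2G4A, the cytosolic phospholipase that frees arachidonic acid, read 2176, 2382 and 2252, a difference of 0.05. MGST3, a microsomal glutathione transferase, read 8026, 9119 and 9854, a difference of 0.24. ALOX5, ALOX5AP and LTC4S, the genes that make leukotriene C4 from arachidonic acid, were dim, with LTD4 intensities of 126, 90.8 and 163. Among 12 rows of prostaglandin enzymes 10 were above 0, with a median of 0.09 beside 0.08 for rows of like brightness. AKR1C3 among them, a prostaglandin F synthase, read 4488, 3733 and 4343, a difference of 0.34.

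Downstream of the receptor, the 34 rows of Gq, Gi, phospholipase C beta and IP3 receptors had a median of -0.02, with 16 above 0 and 18 below. The calcium sensor STIM2 read 1511, 2172 and 1552 and had the lowest value, -0.35. The G protein gamma subunit GNG5 read 1764, 2598 and 3061 and had the highest, 0.36. GNAQ, the alpha subunit of Gq, read 3543, 3776 and 3252, a difference of -0.09. RGS regulators, which switch G proteins off, had a median of 0.03 over 14 rows, with RGS13, an inhibitor of Gq and Gi signals in B cells, at 1173, 2362 and 2731 and a difference of 0.33. The median of the 15 NFAT and CREB target rows was 0.00, with the coactivator gene CRTC2 at -0.43 and CREM at 0.38.

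The immediate early genes stood high at 1 h and not at 8 h. Of 40 rows, 18 were 1.5-fold above methanol at 1 h, where 0.724% of all rows were, and the median was 0.52. At 8 h the median was 0.05, with 24 above 0 and 16 below and 0 past the limit in either direction. The 8 h and 1 h differences share no array. The 18 rows that had passed at 1 h had a median of -0.06 at 8 h and ranged from -0.42 to 0.16.

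EGR1, the zinc finger factor with the second-highest value in that list at 1 h, 1.76, read 573 untreated, 990.1 with methanol and 865 with LTD4 at 8 h. Its difference from methanol was -0.06 and from untreated 0.25. NAB2, a repressor of EGR1, read 318, 568 and 411, a difference of -0.32 after 1.45 at 1 h. TRIB1, a pseudokinase, had 0.15 after 1.77, and KLF10, a Krüppel-like factor, -0.05 after 1.53. ZFP36, which speeds the decay of cytokine messages, read 339, 525 and 355, a difference of -0.42 after 0.62. KLF4, which had been lower at 1 h by -0.37, was the highest member at 8 h with 0.43, from 209, 251 and 315.

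Feedback on MAP kinases followed the same course. The 15 rows of DUSP and Sprouty genes had a median of 0.37 at 1 h, with 3 past 1.5-fold, and of -0.02 at 8 h, with 0 past it. DUSP1 read 368, 449 and 348 (-0.23) and DUSP7 798, 1087 and 863 (-0.20), both phosphatases that switch off MAP kinases. DUSP6, the phosphatase of ERK, had 0.12. The 28 NF-kB subunits, inhibitors and targets ranged from -0.20 for NFKB1, at 2566, 2382 and 1897, to 0.25 for CHUK, and their median was -0.03.

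In the JAK and STAT group, the 4 lowest of 22 rows were JAK2 and 3 genes that restrain its signals. SOCS3 read 240, 291 and 192 with a difference of -0.43, CISH read 605, 716 and 535 with -0.28, and SOCS1 800, 1039 and 789 with -0.26. All 3 suppress JAK signalling, and all 3 had stood above methanol at 1 h, by 0.37, 0.50 and 0.47. SOCS2, SOCS5 and PTPN6, also inhibitors of cytokine signals, lay on the other side with 0.08, 0.09 and 0.12. The kinase gene PIM3 was at the other end with 0.21. Of the 22 rows, 14 lay below 0 and 0 were past 1.5-fold, with a median of -0.06 beside 0.00 for rows of like brightness.

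Chemokines had a median of 0.15 over 39 rows, beside 0.11 for rows of like brightness, and 31 were above 0. After CXCL10, CCL3, which draws monocytes and T cells, read 1537 untreated, 1514 with methanol and 1920 with LTD4, a difference of 0.47 from methanol and -0.02 from untreated. At 1 h it had been higher by 1.18. CXCL3, a neutrophil attractant, was the lowest at -0.40, from 546, 598 and 410. CCL17, the ligand of CCR4 that Hodgkin cells are known to release, had -0.06 from 1265, 1523 and 1336, and CCL5 had 0.21 from 2862, 3045 and 3225. XCL2 and CCL4 passed 1.5-fold from methanol, both dim, with LTD4 intensities of 62.5 and 40.4.

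CXCL10 was not accompanied by the interferon response as a whole. Of 38 rows of interferon-induced genes 19 lay above 0 and 19 below, and their median was -0.01. MX1, an antiviral GTPase, had the lowest value, -0.43, from 335, 448 and 300.2. IFIT5 and CXCL11 followed CXCL10 at the top with 0.56 and 0.40, IFIT5 from intensities of 26.2, 42.9 and 63.2. Costimulatory and checkpoint ligands had a median of 0.12 over 16 rows, between -0.45 for LGALS9 and 0.37 for CD276.

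The granule genes listed with SRGN did not all lie on its side. The list had 24 rows with a median of 0.14 beside 0.06 for rows of like brightness, and 18 lay above 0. CD63, a membrane protein of granules and exosomes, read 2667, 2701 and 3346 with 0.43, and CTSH, a lysosomal cysteine protease, read 472, 524 and 361 with -0.39. GNLY, the granule protein granulysin, passed 1.5-fold at intensities of 66.8, 65.1 and 95.6. Interleukins and TNF ligands had a median of 0.05 over 49 rows, with IL6 at 872, 1474 and 1715 and a difference of 0.34, after 0.74 at 1 h.

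Large protein complexes leaned to the LTD4 side without any row past 1.5-fold. The counts above 0 that follow stand beside 59.0% above 0 over all rows and 59.4% over bright rows. The proteasome, which degrades ubiquitin-tagged proteins, had a median of 0.19 over 43 rows, of which 39 were above 0, and rows of like brightness had 0.08. PSMA6, of its core, read 3428 untreated, 3153 with methanol and 4262 with LTD4, a difference of 0.56. PSMD14, the deubiquitinating subunit of its lid, read 1943, 2992 and 3730 and had 0.44. At 1 h the median of the same rows was 0.02. The 43 rows hold 37 symbols, and PSMB8 and PSMB9 each sit on several rows of identical values.

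The mitochondrial ribosomal proteins had a median of 0.15 over 79 rows, with 66 above 0, beside -0.02 for rows of like brightness. The median of the rows' own distances from like-brightness rows was 0.17, the greatest of the 82 groups. MRPL50 read 796, 1303 and 1703, a difference of 0.51. Subunits of respiratory complex I, which takes electrons from NADH, had 0.15, with 32 of 38 above 0, and NDUFB8 among them read 1309, 1697 and 2128, a difference of 0.45. Complexes III and IV and ATP synthase had 0.12, with 41 of 48 above 0.

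The cytoplasmic ribosomal proteins had 0.16, with 109 of 130 rows above 0, beside 0.08 for rows of like brightness. The 130 rows hold 85 symbols. RPS14 read 4746, 5196 and 6169 and had 0.37. Against untreated cells, which share the LTD4 array with the values above, the median was -0.21 for cytoplasmic ribosomal proteins, 0.08 for the proteasome, 0.07 for mitochondrial ribosomal proteins and 0.09 for complex I. Bright rows as a whole were lower there, and the median distance from rows of like brightness was -0.01 for cytoplasmic ribosomal proteins, 0.28 for the proteasome, 0.22 for mitochondrial ribosomal proteins and 0.24 for complex I. Splicing factors of the hnRNP family, which bind nascent RNA, had 0.17 against methanol and -0.09 against untreated. Their median distance from rows of like brightness was 0.09 against methanol and 0.12 against untreated.

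On the other side, autophagy and lysosome genes had a median of -0.10, with 17 of 28 rows below 0, although GABARAPL2, an ATG8 family protein of autophagosomes, stood at 0.55 from 1955, 2139 and 2864. The FOXO and growth factor withdrawal list had -0.09, with 15 of 21 below 0. SESN3, a FOXO target that restrains mTORC1, read 289, 291 and 199 and had -0.39, and BCL6, the germinal centre repressor, read 247, 365 and 252 and had -0.38. In the MYC, MAX and MXD network 10 of 12 rows were below 0, with MYCL at -0.37 from 893, 1094 and 773, and the median was -0.07. The kinesins, motor proteins of microtubules, had the same median over 39 rows, with 25 below 0. The median distance from rows of like brightness was -0.08 for autophagy and lysosome genes. It was -0.09 for the FOXO list, the MYC, MAX and MXD network and the kinesins, so each lay within 0.1 of like rows.

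**Figure D3:**
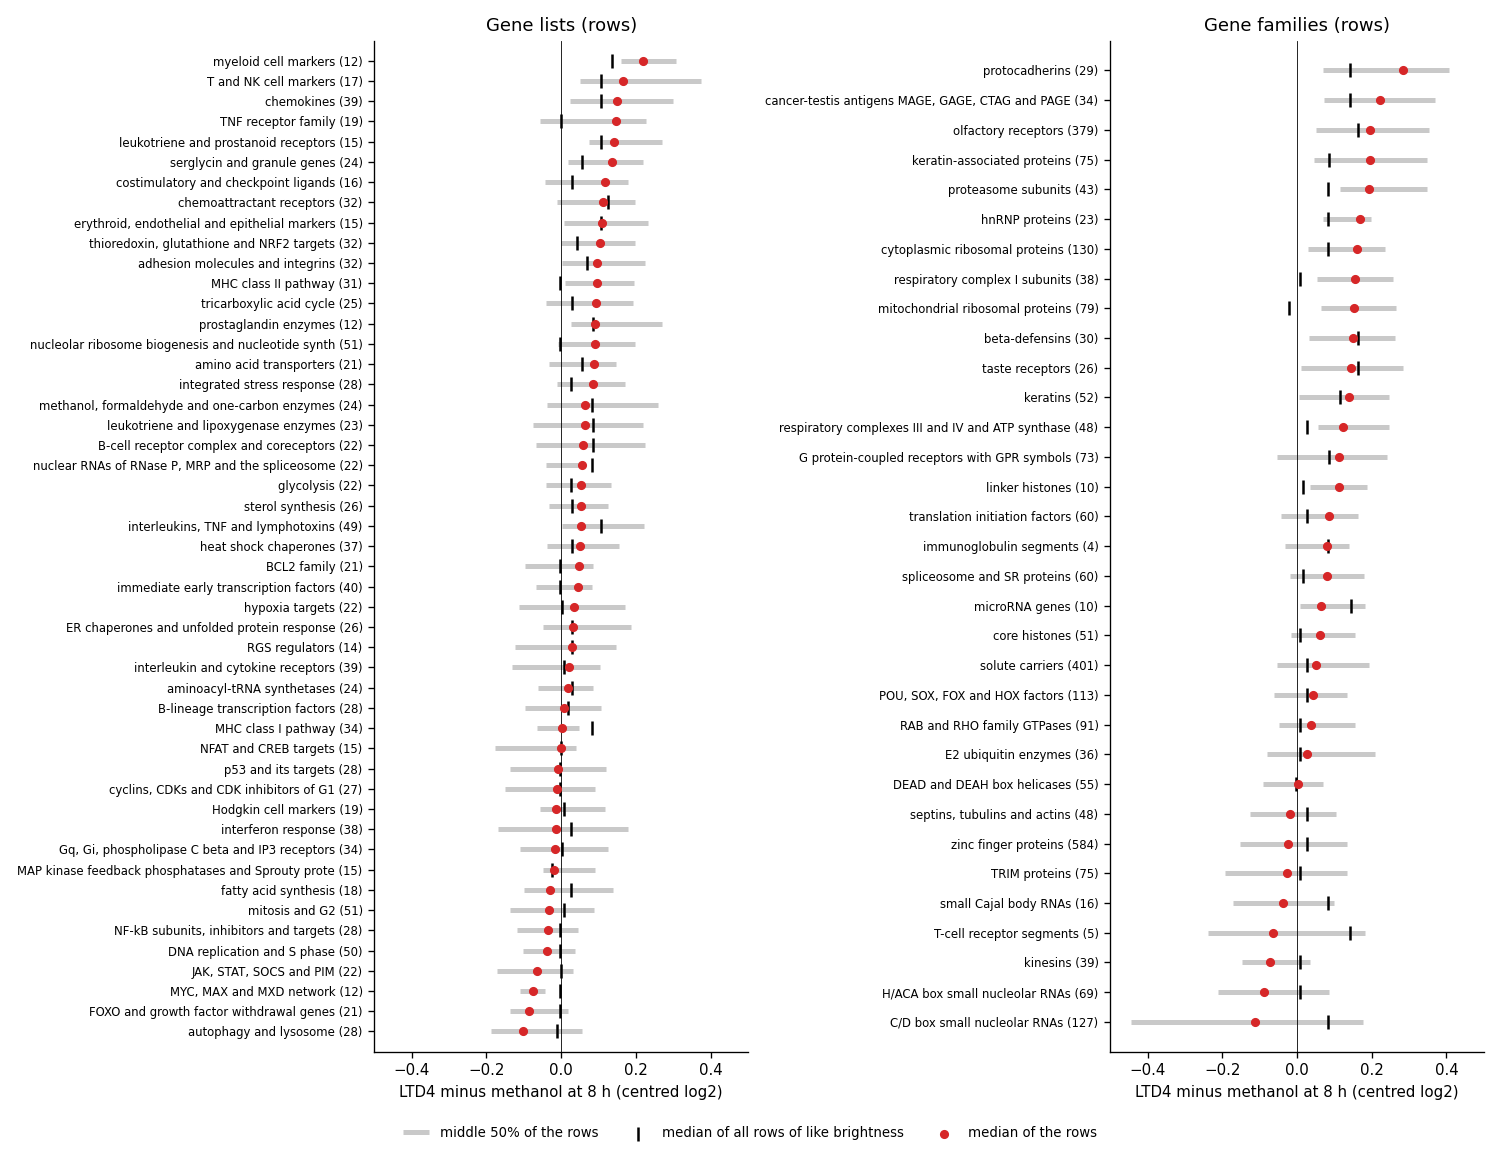
Median difference of LTD4 from methanol at 8 h (x, centred log2 of intensity + 16) for 49 gene lists and 33 families, with the number of rows in brackets. Red points are medians, grey bars the middle 50% of rows, and black ticks the median of all rows of like brightness. The medians run from -0.11 for C/D box small nucleolar RNAs to 0.28 for protocadherins.

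The groups spanned -0.11 to 0.28 in all, 59 of 82 medians lay above 0 (18 without centring), and in 72 groups the rows' own distances from rows of like brightness had a median within 0.1 of 0. The highest, 0.28 for protocadherins, and the 0.19 for olfactory receptors belong to dim families for which like rows had 0.14 and 0.16. Of 379 olfactory receptor rows 303 were above 0, beside 59.0% of all rows, and 18 were 1.5-fold above methanol, beside 0.97% of all rows. Dim rows passed that limit more often, 74 of the 1347 with a mean under 50 and 65 of the 2722 between 50 and 100. Groups of cell growth and survival lay near 0. DNA replication and S phase had -0.04 over 50 rows, mitosis and G2 -0.03 over 51, p53 and its targets -0.01 over 28 and the BCL2 family 0.05 over 21. MAD2L1, a spindle checkpoint protein, was an exception within its list at 0.53, from 1557, 1569 and 2077. BCL2A1, an NF-kB dependent survival gene, had 0.47 from 184, 298 and 381.

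Metabolic and stress groups were also near 0. The medians were 0.05 for glycolysis, 0.05 for sterol synthesis, 0.09 for the integrated stress response, 0.03 for endoplasmic reticulum chaperones, 0.05 for heat shock chaperones and 0.06 for enzymes of methanol, formaldehyde and one-carbon metabolism. Within the last, ESD, which completes formaldehyde removal, read 1012, 1445 and 1686 with 0.35. PFKFB4, a regulator of glycolysis, was the lowest of its list with -0.47, from 218, 237 and 151. MHC class II genes had 0.10 over 31 rows, with 25 above 0, beside 0.00 for like rows, and MHC class I genes 0.00 over 34. The 31 rows hold 17 symbols and the 34 rows 15, so these counts include repeats of a gene.

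The authors' deposited annotation gave 729 terms with at least 15 rows, and for 669 the rows' median distance from rows of like brightness was within 0.1. Among 50 pathway maps of the GenMAPP collection, the electron transport chain had 0.15 with 84 of 95 rows above 0, and the Reactome map of mRNA processing 0.23 with 20 of 24. The MAPK cascade map had -0.05 with 5 of 27 rows above 0, and a median of 0.16 at 1 h. Among Gene Ontology terms, the proteasome core complex had 22 of 22 rows above 0 and a median of 0.18. Terms were counted by row, so a symbol on several rows entered once for each. The spindle pole had 2 of 16 above 0 and a median of -0.15, and histone acetyltransferases 6 of 19 and -0.16.

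The number of probes behind a row and the length of its gene moved with the difference across rows. Among 8515 rows with a mean of 400 or more, the median difference at 8 h was 0.06 for rows of 15 or fewer probes and -0.08 for rows of more than 45. The share of rows above 0 was 64.2% in the first class and 29.0% in the last. Genes were also put in 5 equal classes by their span in RefSeq's table. The median went from 0.06 among the shortest, with a median span of 3.69 kb, to -0.07 among the longest, at 129 kb. At 1 h the order was the opposite, from 0.08 to 0.15. The ribosomal, proteasome and respiratory rows had medians of 24 to 29 probes and the kinesins 36. The MYC, MAX and MXD network had a median of 27 probes and a median difference of -0.07, and the C/D box RNAs had 23 probes and -0.11. The part of probe number and gene length in the group medians was not tested.

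**Figure D4:**
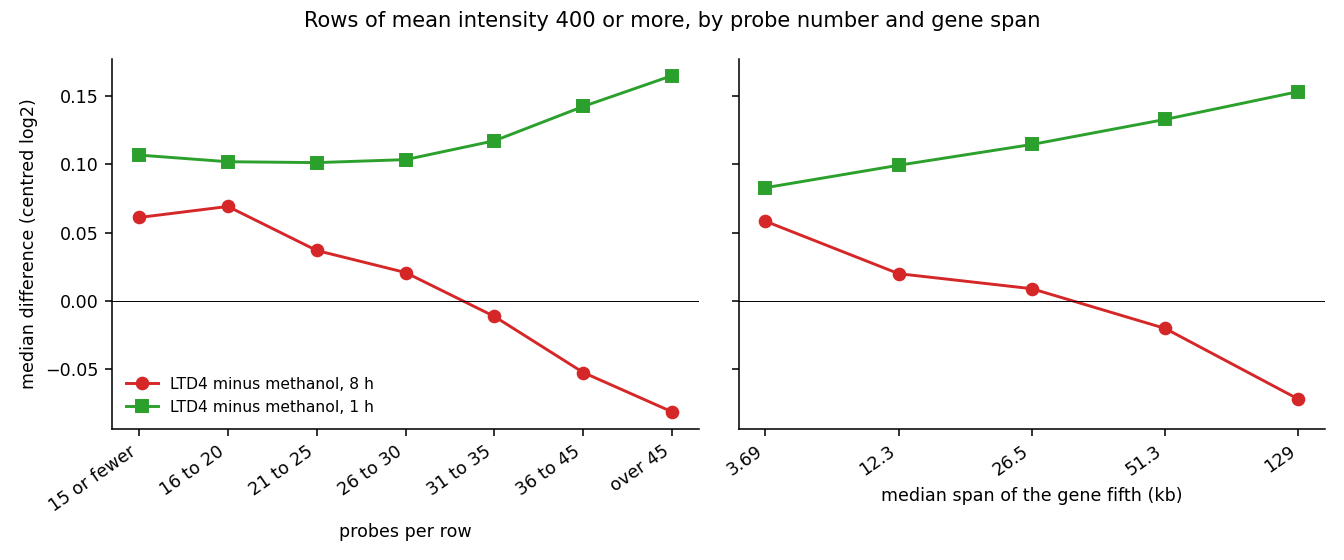
Median difference of LTD4 from methanol (y, centred log2) at 8 h (red) and 1 h (green) for rows with a mean intensity of 400 or more, by probes per row (left) and by 5 equal classes of gene span (right). The 8 h medians go down from 0.06 to -0.08 and from 0.06 to -0.07, and the 1 h medians end higher than they start.

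Small nucleolar RNAs guide chemical marks on ribosomal RNA, the C/D box kind 2′-O-methylation and the H/ACA box kind pseudouridylation, and most are cut from introns of host genes. Of 127 C/D box rows 19 were 1.5-fold below methanol, where 0.205% of all rows were, and 4 were above, where 0.97% were. Counted once per symbol, the 19 rows are 14 RNAs. Their median was -0.11, with 80 rows below 0, beside 0.08 for rows of like brightness. Of 69 H/ACA box rows 2 were below and 0 above, with a median of -0.09. Of the 16 small Cajal body RNAs, which guide marks on spliceosomal RNA, 0 passed either way.

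Methanol was more often the highest array for these RNAs than over all rows. It was the highest of the 3 arrays for 62 of the 127 C/D box rows, 48.8%, against 15.9% of all rows, and for 31 of the 69 H/ACA box rows, 44.9%. The median C/D box row lay 0.25 above untreated with methanol and 0.01 above it with LTD4. The nuclear RNAs of RNase P, MRP and the spliceosome had a median of 0.06 from methanol over 22 rows, which hold 12 symbols. Against untreated their median was -0.15 with methanol and -0.09 with LTD4. How often methanol was the highest array was not counted for them.

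SNORD15B read 1144 untreated, 3076 with methanol and 1177 with LTD4. It was the row farthest below methanol, at -1.25, while its difference from untreated was -0.29. SNORD3B-1, a copy of U3, which is needed to cut the ribosomal RNA precursor, read 7405, 12468 and 7034 on each of 5 rows of chromosome 17 with identical values, and its row on chromosome 6 read 2684, 4904 and 2500. The differences from methanol were -0.70 and -0.84. The 5 identical rows are 1 observation, and the counts of rows given here include each of them.

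A second pattern had LTD4 between the references. SNORD54 read 291, 1728 and 899, a difference of -0.80 from methanol but 1.24 from untreated. SNORD41 read 662, 3997 and 2304, with -0.66 and 1.44, and SNORD13 read 981, 5074 and 2998, with -0.63 and 1.26. SNORD28 read 1267, 4083 and 2415, with -0.63 and 0.59. For SNORD54, SNORD41 and SNORD13 the LTD4 array lay nearer to methanol than to untreated cells and for SNORD28 about midway, unlike SNORD15B and SNORD3B-1, where it had the untreated level or less.

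Among H/ACA box RNAs, SNORA24 read 623, 2009 and 1173, with -0.64 and 0.56, and SNORA40 read 636, 1080 and 628, with -0.64 and -0.35. SNORA71A read 1401, 2059 and 1264, with -0.57 and -0.48, and SNORA71C read 2548, 2895 and 2010, with -0.40 and -0.67. SNORA31 was highest in untreated cells, at 2909, 2359 and 1615, and had -0.42 and -1.18, after 1.53 at 1 h. Without the rows of small nucleolar and Cajal body RNAs, 19 rows were 1.5-fold below methanol in place of 40, an alternative added after the data were seen.

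**Figure D5:**
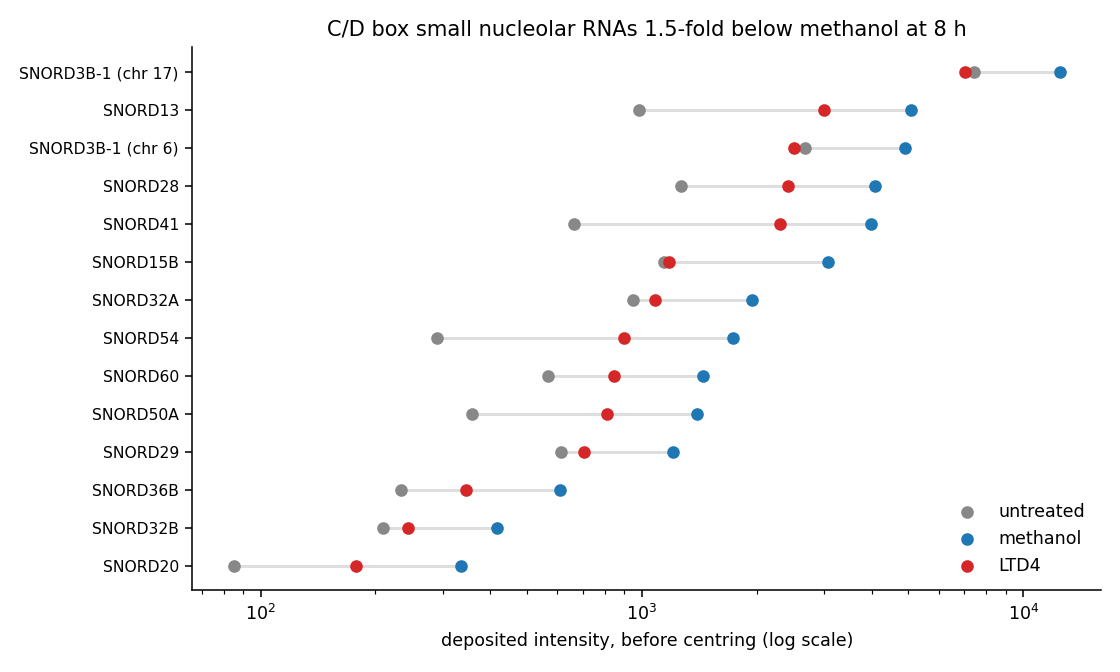
Deposited intensity before centring (x, log scale) of the C/D box small nucleolar RNAs that were 1.5-fold below methanol at 8 h, on the untreated (grey), methanol (blue) and LTD4 (red) array, with identical rows drawn once and copies of SNORD13 left out. Methanol is the highest for every RNA, and LTD4 lies at the untreated level for SNORD15B and SNORD3B-1 and between the references for SNORD54, SNORD41 and SNORD13.

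Across rows, the 8 h difference went against the 1 h difference, which was measured on other arrays. Spearman's correlation over the 19479 rows was -0.41 and over the 3016 bright rows -0.46. This describes the arrays only: rows are not independent, they share probe number and brightness, and no p is given. Of the 427 rows 1.5-fold below methanol at 1 h, which were 2.19% of all rows, 371 were above 0 at 8 h and 22 were past 1.5-fold above. Those 22 are 5.15% of the rows below at 1 h and 11.6% of the 189 rows above at 8 h. Over all rows 59.0% were above 0 at 8 h, 0.97% were 1.5-fold above and 0.205% were 1.5-fold below. The 427 rows were dim, with a median mean intensity of 103, and all rows between 100 and 200 had a median difference of 0.09. The part of brightness in these counts was not tested. Of the 141 rows above methanol at 1 h, 78 were below 0 at 8 h and 6 were past 1.5-fold below, 4.26% of the former and 15% of the 40 rows below at 8 h.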

How the data were processed

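Total RNA of L1236 was measured on 6 gene-level arrays, 1 per group, so precision is limited by that number. The deposited values are intensities on a linear scale. Per the submitters' processing notes, RMA and Affymetrix Expression Console were used, with no version given, while the table's name carries PLIER, and the sources used here settle neither the method nor the genome build. All 199782 values stood unchanged in another deposited table.

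The deposited annotation gave 1 symbol for 19479 rows, several for 1032 and none for 12786, and 19079 symbols were updated by Entrez identifier to RefSeq's GRCh38.p14 table. Intensities were taken as log2(intensity + 16), which understates differences of dim rows, and each array was centred on the median of these rows. Like-brightness medians used 20 classes of mean intensity. Python 3.11.15, pandas 2.3.3, NumPy 2.4.6 and statsmodels 0.14.6 were used, and the rule for calls was tested on simulated data.

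Members and lists were chosen with earlier results of these data known. Named genes were, with 1 row a symbol, the 15 bright and 8 other rows farthest above and below both references by the smaller difference, up to 4 members of each list and 3 of each family farthest from methanol, and CYSLTR1, CYSLTR2, EGR1, SRGN, LTA4H, CES1 and CXCL10. Other genes named from the lists or as few past a limit were chosen after their values were seen. Alternatives were offsets of 1 and 64, no centring, quantile normalization, a lowess curve with a span of 0.3, filters on brightness, 1 row a symbol and a limit of 2-fold.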

Additional observations from a re-analysis of the deposited data

Results flagged for a closer look

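For 11 named genes the LTD4 array lay 1.5-fold or more to one side of methanol at 8 h and to the other side at 1 h. Each time is 1 array a side, the difference between times was not tested, and single arrays cannot be tested for outliers. In 9 genes LTD4 was higher at 8 h and lower at 1 h: CES1 had 0.64 and -1.49, CRIPTO3 0.88 and -1.09, GSTM3 0.77 and -0.74, KIR3DX1 1.27 and -0.60, and LCE2D 0.83 and -0.79. MAGEB10 had 0.69 and -0.87, OR4B1 0.81 and -1.78, SEPTIN10 0.71 and -0.77, and ZNF572 0.87 and -0.73. The small nucleolar RNAs SNORA40 and SNORD54 went the other way, with -0.64 and 0.62, and -0.80 and 0.62.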

How the results depend on the processing

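No paired analysis was possible because each group held 1 array. Counts past the limit depended on the processing. No named gene that was 1.5-fold from methanol took the opposite sign under any of these settings. That is a weak check, since a change of sign needs a shift larger than the limit itself. Of 323 named genes, 118 moved by the antigenomic SD of 0.10 or more with a lowess curve. With an offset of 64, 81 did so, with quantile normalization 61, and without centring 323. Of the 82 group medians 17 moved that far with a lowess curve. The counts above methanol, below methanol, above both and below both were 189, 40, 36 and 7. They were 5, 2, 2 and 0 at 2-fold, 417, 96, 121 and 37 with an offset of 1, and 62, 87, 16 and 23 with a lowess curve. With an offset of 64, 15 were above methanol, 8 above both and 3 below both. Without centring, 60 were above methanol, 121 below it and 12 below both, and with quantile normalization 91 were above methanol and 12 below both. Among rows at or above the antigenomic median 107 were above methanol, and among those at or above its 95th percentile 3, 12, 1 and 0. Against untreated alone 996 were above and 1030 below, and without small nucleolar and Cajal body RNAs 19 were below methanol, both added after the data were seen. Of the 82 group medians 59 were above 0, and 18 without centring, which lowers every difference alike. Over 10 settings, the main one included, SRGN ran from 0.65 to 0.79 and passed 1.5-fold in 10. ANXA1 ran from 0.46 to 0.59 and passed in 7, and LTA4H from -0.62 to -0.48 and in 1. CXCL10 ran from 0.44 to 0.57 and passed in 0. Settings that only dropped rows left a gene's value as in the main setting and could not change its call. The counts of settings passed are therefore no measure of robustness, least of all for ANXA1, which sat at the limit. Signal over background limits the dim rows: 1564 of the rows with 1 symbol had a mean under the antigenomic median.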
